A study of Rattus norvegicus with 9 samples.

Results

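The interferon response genes are a set of 45 rat genes whose transcripts are induced by interferons, together with receptors through which interferons act. Members were chosen by symbol, matched to the NCBI Gene IDs of the deposited table, and used where at least 3 libraries held counts. This left 42 of the 45 genes, among 17465 genes in the table. Herc6, Xaf1 and Ifnar2 were not analysed here. The lungs came from fetal Sprague-Dawley rats and formed 3 groups of 3 libraries: control lungs with no treatment, untreated hypoplastic lungs, which are underdeveloped and arose here secondary to oligohydramnios (too little amniotic fluid), and treated lungs, which were hypoplastic and received AFSC-EV, vesicles released by stem cells from amniotic fluid. All 3 groups were frozen whole-lung tissue of the same strain, and total RNA was sequenced after removal of ribosomal RNA. The sources used here do not give fetal age, litter, or the dose and route of the vesicles. Nothing beyond the numbering of the libraries says that they were separate animals, so p-values measure the spread between these samples.

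Interferons are secreted signals of antiviral defence. Type I interferons (alpha and beta) bind the receptor formed by Ifnar1 and Ifnar2 and act through factors that include Stat2 and Irf9, while interferon gamma binds the receptor that contains Ifngr1. The induced genes encode proteins that sense or block viral RNA, tag proteins with Isg15, load peptides for antigen presentation and attract lymphocytes. In tissue they are expressed at a low basal level by many cell types, and macrophages are among the strong responders.

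Library totals ran from 56922779 to 88243188 estimated counts, and levels are given as CPM, the usual depth-scaled counts, after TMM scaling of the library sizes. The lung epithelial genes Nkx2-1, Sftpc, Sftpb, Sftpa1, Scgb1a1, Ager, Epcam and Cdh1 were all detected in every library. Their summed level was 3659, 5829 and 4541 CPM in control libraries 1 to 3, 3337, 2893 and 3178 in the hypoplastic and 4086, 3801 and 3457 in the treated libraries, lower in every hypoplastic than in every control library and lowest in hypoplastic library 2, and its part in the results was not tested. In the interferon response genes 2 libraries stood apart, hypoplastic library 2 most. Of the 42 genes used, 36 were highest in hypoplastic library 2, and in 31 of these 36 treated library 3 was second. Treated library 3 was highest for 3 genes and control library 2 for 3. In hypoplastic library 2, 31 of 42 genes were more than 2 times, and 17 more than 10 times, the median of the other 8 libraries. In treated library 3, 20 of 42 were more than 2 times the median of the other 7. The shares of all genes for these counts are not given here, so the counts have no background. The mean standardised level of the 39 genes tested was 1.99 in hypoplastic library 2, 0.782 in treated library 3 and -0.491 to -0.107 in the other 7. Hypoplastic library 2 held 60950148 counts and treated library 3 held 65452123, both within the range of the other 7 libraries. In whole tissue, fewer cells of a type and less RNA per cell cannot be told apart. Fitted medians and counts are therefore also given without these libraries.

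**Figure D1:**
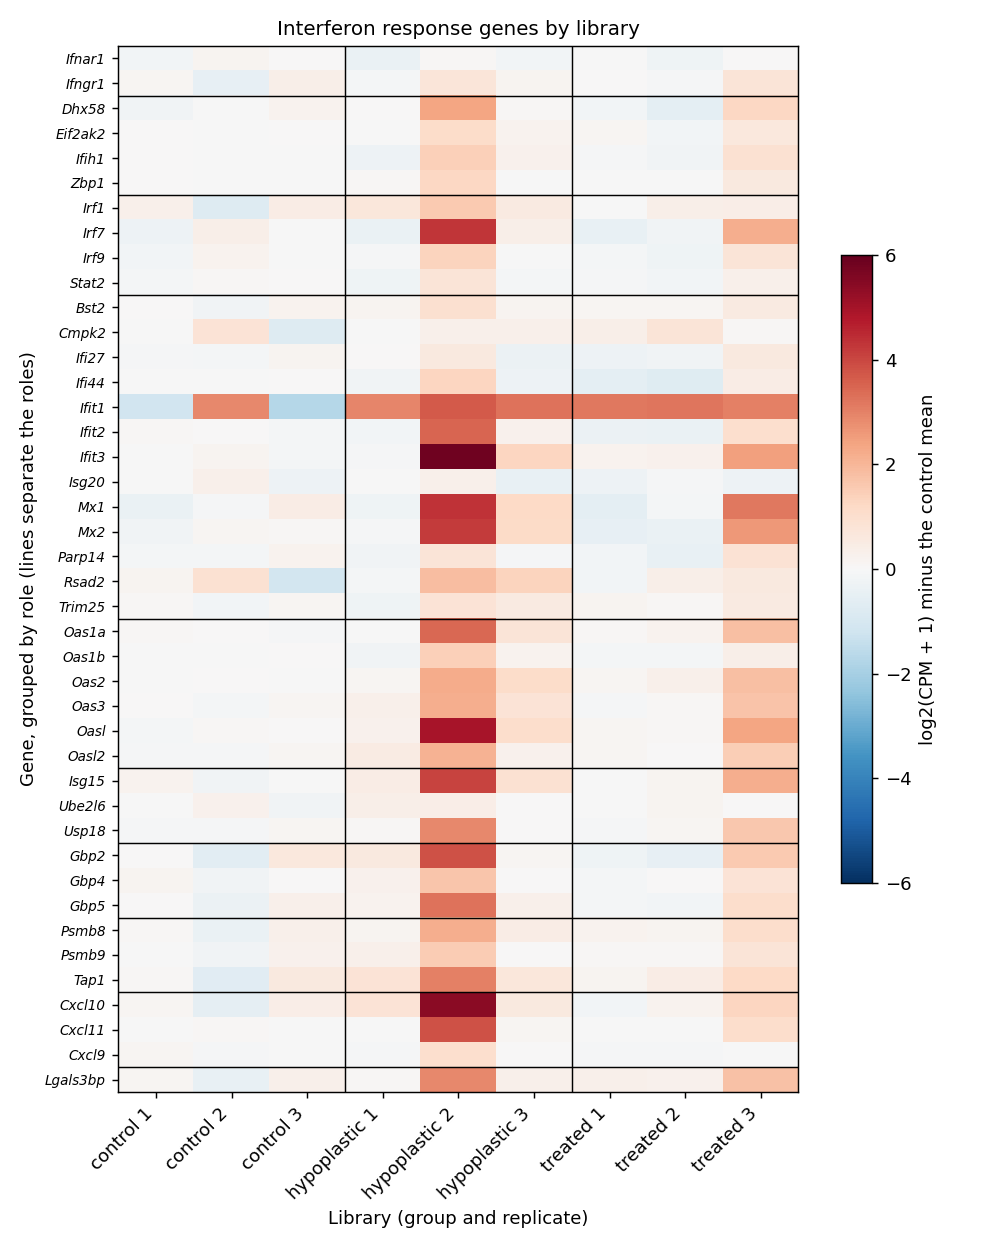
Heat map of log2(CPM + 1) minus the control mean for the 42 genes used (rows, grouped by role) in the 9 libraries (columns). The column of hypoplastic library 2 is the reddest for 36 of the 42 genes and that of treated library 3 comes second for most of them, while Ifit1 is blue in control libraries 1 and 3 and red in the other 7.

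Promoters of interferon-induced genes often carry short sequence elements known to bind the factors that interferons activate. RefSeq promoter windows of assembly GRCr8 (250 bases before to 50 after a gene's start) matched 34 of the 42 genes by symbol. The letters GAAA, NN and GAAA in a row (N is any base), the core of the interferon-stimulated response element, were searched on both strands and occurred in 21 of the 34 windows (61.8%), against 3.92% of all 33469 rat promoter windows. The letters TTCNNNGAA, the core of an element known from promoters that respond to interferon gamma, read the same on both strands and occurred in 9 of the 34 (26.5%), against 8.87% of all windows. Both kinds occurred in 5 windows, and in 1 of these, that of Bst2, they overlapped. A match is a description of the letters and not a mapped binding site. The windows of 6 genes are shown, with every match to the response element on either strand in capitals: 4 from genes at more than 15 times the median of the other libraries in hypoplastic library 2, and those of the neighbouring genes Rsad2 and Cmpk2, which followed another pattern. The windows lie at chr1:241527076-241527375 (+ strand) for Ifit3, chr1:205799974-205800273 (- strand) for Irf7, chr2:234005477-234005776 (+ strand) for Gbp2, chr14:15988816-15989115 (+ strand) for Cxcl10, chr6:48788071-48788370 (- strand) for Rsad2 and chr6:48802600-48802899 (+ strand) for Cmpk2.
Ifit3: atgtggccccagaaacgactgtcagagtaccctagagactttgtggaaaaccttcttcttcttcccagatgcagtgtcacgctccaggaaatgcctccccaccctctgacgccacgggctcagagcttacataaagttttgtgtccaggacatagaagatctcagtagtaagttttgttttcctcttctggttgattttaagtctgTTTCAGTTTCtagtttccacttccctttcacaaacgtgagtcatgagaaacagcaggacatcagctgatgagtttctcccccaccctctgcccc
Irf7: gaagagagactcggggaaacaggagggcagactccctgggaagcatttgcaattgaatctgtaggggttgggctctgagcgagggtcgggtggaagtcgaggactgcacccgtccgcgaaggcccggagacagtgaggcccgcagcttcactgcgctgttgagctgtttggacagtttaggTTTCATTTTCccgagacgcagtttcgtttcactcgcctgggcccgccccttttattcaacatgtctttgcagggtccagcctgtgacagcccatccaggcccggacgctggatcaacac
Gbp2: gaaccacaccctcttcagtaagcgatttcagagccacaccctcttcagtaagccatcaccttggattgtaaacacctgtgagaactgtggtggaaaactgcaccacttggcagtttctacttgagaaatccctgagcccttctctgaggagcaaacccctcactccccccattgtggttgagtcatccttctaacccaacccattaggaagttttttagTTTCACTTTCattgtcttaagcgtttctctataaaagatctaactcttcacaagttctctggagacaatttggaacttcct
Cxcl10: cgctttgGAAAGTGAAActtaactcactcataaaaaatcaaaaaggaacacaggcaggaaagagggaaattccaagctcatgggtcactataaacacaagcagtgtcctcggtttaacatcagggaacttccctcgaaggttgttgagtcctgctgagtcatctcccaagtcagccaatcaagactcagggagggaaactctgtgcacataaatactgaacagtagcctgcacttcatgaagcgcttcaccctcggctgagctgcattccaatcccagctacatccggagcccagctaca
Rsad2: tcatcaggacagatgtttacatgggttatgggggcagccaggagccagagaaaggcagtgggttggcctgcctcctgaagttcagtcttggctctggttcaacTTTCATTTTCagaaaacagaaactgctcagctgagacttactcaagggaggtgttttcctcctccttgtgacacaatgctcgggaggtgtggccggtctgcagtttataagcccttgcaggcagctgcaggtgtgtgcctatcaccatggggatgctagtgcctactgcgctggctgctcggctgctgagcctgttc
Cmpk2: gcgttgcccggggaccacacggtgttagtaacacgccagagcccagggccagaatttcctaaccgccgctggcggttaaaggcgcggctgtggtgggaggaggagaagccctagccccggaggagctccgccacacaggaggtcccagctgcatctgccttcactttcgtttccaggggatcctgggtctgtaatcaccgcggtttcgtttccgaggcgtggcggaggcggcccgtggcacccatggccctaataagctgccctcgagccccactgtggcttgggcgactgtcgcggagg
Counted from the gene's start, the match began at position -44 in Ifit3, -69 in Irf7, -31 in Gbp2, -243 in Cxcl10 and -147 in Rsad2, and the Cmpk2 window held none. Of the 21 genes with a match, 17 were more than 2 times the median of the other libraries in hypoplastic library 2. Of the 13 with a window and no match, 7 were, as were 7 of the 8 genes without a window. The share of all genes above that ratio is not given here.

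Between hypoplastic and control lungs, the question was how the model of hypoplasia differed from normal fetal lung. Most interferon response genes had a higher fitted level in the hypoplastic lungs, and none passed the adjusted threshold. Of the 42 genes used, Cxcl9, Cxcl11 and Zbp1 were set aside for low counts, and the other 39 were tested within a fit over 12966 genes. By edgeR's quasi-likelihood test 0 of 39 had an adjusted p under 0.05, where 0.00771% of all genes did. At an unadjusted p under 0.05 there were 19 of 39, all higher, against 12.4% of all genes in both directions and 6.67% higher. By limma voom there were 3 of 39 (7.69%), against 10.05% of all genes, and by DESeq2 12 of the 30 genes it gave a p, against 13.6% of all genes. The fitted change was above 0 for 37 of 39, against 51.9% of all genes, and the median log2 fold change was 1.62, against 0.013 over all genes. Library values did not overlap for 9 of the 39, all higher in the hypoplastic lungs, where 7.67% of all genes were higher and 9.05% lower without overlap.

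The median fell most without hypoplastic library 2. The count at an unadjusted p under 0.05 differed between fits, which did not all test the same genes. With hypoplastic library 2 left out, the median log2 fold change of the 39 genes was 0.199, 29 of 39 had a fitted change above 0 (52% of all genes did), and 0 had an unadjusted p under 0.05, where 8.99% of all genes did. Without hypoplastic library 2 and treated library 3, 29 of 39 were again above 0 (51.9% of all genes), and 5 had an unadjusted p under 0.05, against 9.47% of all genes. The count was 9 of 41 without control library 1, 9 of 42 without control library 2 (6.49% of all genes), 11 of 42 without control library 3, 31 of 42 without hypoplastic library 1 and 26 of 42 without hypoplastic library 3. Of these fits, the share of all genes is given only for that without control library 2. Fits of 41 or 42 genes took in genes that the main fit set aside for low counts. Where 42 were tested, these were Cxcl9, Cxcl11 and Zbp1, all highest in hypoplastic library 2. Those counts are therefore not comparable with counts over 39 genes. In the absence of hypoplastic library 2, 9 of 39 genes were higher and 2 lower without overlap, against 13.0% and 14.1% of all genes. DESeq2 gave no p for 9 of the 39 genes (23.1%), because a count in 1 library stood too far from the fit, and for 40 of the 12966 genes (0.308%). The 9 were Cxcl10, Gbp2, Gbp5, Ifit2, Ifit3, Irf7, Lgals3bp, Oasl and Usp18. DESeq2 called 1 gene of the set, Oas2, where it called 1.63% of all genes with an adjusted p.

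The receptors differed less between libraries than most other members. Ifnar1, a chain of the type I receptor, was at 100.3, 127 and 113 CPM in control libraries 1 to 3, 84.1, 120.1 and 99.9 in the hypoplastic and 113, 94.8 and 114 in the treated libraries. The groups overlapped, and no library stood apart. Its log2 fold change between hypoplastic and control lungs was -0.16 (SE 0.147), with an edgeR adjusted p of 0.68. Ifngr1, the ligand-binding chain of the interferon gamma receptor, ran from 23.2 to 56.4 CPM, with its highest values in treated library 3 and hypoplastic library 2.

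Among the sensors of viral nucleic acid, Eif2ak2, the RNA-activated kinase PKR, was at 28.9, 27.9 and 28.5 CPM in control libraries 1 to 3, 27.6, 61.3 and 32.8 in the hypoplastic and 31.4, 24.9 and 44.4 in the treated libraries. All libraries but hypoplastic 2 and treated 3 lay between 24.9 and 32.8 CPM. Ifih1, the RNA sensor MDA5, was 2.91 times and Dhx58, a regulator of RNA sensing, 7.33 times the median of the other 8 libraries in hypoplastic library 2. The nucleic acid sensor Zbp1 had 84.0 counts in hypoplastic library 2, 35.0 in treated library 3 and 5.0 or fewer in each other library.

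The transcription factors of the pathway ranged from a small to a large difference. Irf7, the factor that amplifies type I interferon production, was at 3.48, 6.08 and 4.45 CPM in control libraries 1 to 3, 3.2, 108 and 6.09 in the hypoplastic and 3.09, 3.78 and 23.9 in the treated libraries. Hypoplastic library 2 stood alone at the top, treated library 3 was next, and hypoplastic libraries 1 and 3 lay within or near the control range. The log2 fold change of Irf7 between hypoplastic and control lungs was 3.07 (SE 1.27, edgeR adjusted p 0.382), and it was -0.011 without hypoplastic library 2. Irf1, a factor induced by interferon gamma, was at 17.4, 7.61 and 19.4 CPM in control libraries 1 to 3, 22.8, 43.5 and 20.4 in the hypoplastic and 13.4, 17.7 and 18.6 in the treated libraries. Every hypoplastic library lay above every control and every treated library, though hypoplastic library 3 exceeded control library 3 by little. The fitted change of Irf1 was 0.96 (SE 0.369) with an edgeR adjusted p of 0.366, and 0.54 without hypoplastic library 2. Stat2, a partner of Irf9 in the complex that type I interferon activates, was at 47.9, 54.0 and 53.4 CPM in control libraries 1 to 3, 42.7, 88.9 and 48.0 in the hypoplastic and 49.2, 46.2 and 65.1 in the treated libraries, a log2 fold change of 0.21 (SE 0.254) that was -0.19 without hypoplastic library 2. Irf9 ran from 6.17 to 8.76 CPM in 7 libraries and was at 20.5 in hypoplastic library 2 and 13.3 in treated library 3.

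The antiviral effectors included the gene with the largest fitted change of the set. Ifit3, which binds viral RNA in a complex with other Ifit proteins, was at 0.513, 0.713 and 0.393 CPM in control libraries 1 to 3, 0.458, 85.5 and 2.77 in the hypoplastic and 0.754, 0.838 and 7.36 in the treated libraries. Hypoplastic library 1 lay within the control range, hypoplastic library 3 above it and hypoplastic library 2 at 117 times the median of the other 8 libraries. On the log2 scale the fitted change was 5.80 (SE 1.82) at an edgeR adjusted p of 0.323, and without hypoplastic library 2 the change was 1.57. Ifit2, of the same family, was at 3.91, 3.67 and 3.34 CPM in control libraries 1 to 3, 3.17, 51.8 and 4.54 in the hypoplastic and 2.63, 2.49 and 8.34 in the treated libraries, and only hypoplastic library 2 and treated library 3 left the range of the others by much. Its fitted change was 2.45 (SE 0.968) and the edgeR adjusted p 0.369, and the change was 0.079 without hypoplastic library 2.

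Mx1 and Mx2 encode dynamin-like GTPases that trap viral components. Mx1 was at 1.92, 2.73 and 4.26 CPM in control libraries 1 to 3, 2.26, 76.9 and 7.73 in the hypoplastic and 1.59, 2.61 and 33.4 in the treated libraries. Mx2 was at 2.33, 3.25 and 3.13 CPM in control libraries 1 to 3, 2.67, 70.0 and 7.61 in the hypoplastic and 1.79, 1.98 and 22.2 in the treated libraries. In both, hypoplastic library 1 lay within the control range, and hypoplastic library 3, treated library 3 and hypoplastic library 2 followed above it in that order. The log2 fold changes were 3.28 (SE 1.41) for Mx1 and 3.20 (SE 1.28) for Mx2, with edgeR adjusted p of 0.391 and 0.37, and 0.73 and 0.81 without hypoplastic library 2.

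Most other effectors differed less. Trim25, a ubiquitin ligase that activates RNA sensing, was at 43.9, 36.6 and 44.8 CPM in control libraries 1 to 3, 35.0, 74.2 and 60.8 in the hypoplastic and 47.0, 43.4 and 61.0 in the treated libraries. Hypoplastic libraries 2 and 3 and treated library 3 lay above the remaining 6. Bst2, which tethers budding virus, Ifi27, Ifi44 and Parp14 were each between 1.60 and 2.83 times the median of the other libraries in hypoplastic library 2. Isg20, an exonuclease, ran from 5.44 to 10.1 CPM (10.05 in control library 2, the highest). Lgals3bp, a secreted glycoprotein, was at 10.4, 6.62 and 12.0 CPM in control libraries 1 to 3, 9.93, 76.2 and 11.9 in the hypoplastic and 11.7, 11.5 and 34.7 in the treated libraries, a fitted change of 1.76 (SE 0.766, edgeR adjusted p 0.398) that was 0.17 without hypoplastic library 2.

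The active enzymes of the OAS family make short oligoadenylates that activate an antiviral ribonuclease. All 6 members had a fitted change above 0 and 5 had an unadjusted p under 0.05, where 12.4% of all genes did, with a median log2 fold change of 3.30. When hypoplastic library 2 was left out all 6 were again above 0, 0 had an unadjusted p under 0.05 and the median was 1.31. Oas2 was at 0.0766, 0.125 and 0.0814 CPM in control libraries 1 to 3, 0.183, 4.05 and 1.34 in the hypoplastic and 0.184, 0.347 and 2.77 in the treated libraries. Every hypoplastic and every treated library lay above every control library, on counts of 5.0 to 7.0 in the controls, and hypoplastic libraries 2 and 3 and treated library 3 stood above the rest. Its log2 fold change between hypoplastic and control lungs was 4.30 (SE 1.45), the edgeR adjusted p was 0.332 and the DESeq2 adjusted p 0.0111. Without hypoplastic library 2 the change was 2.96, and it was the gene of the set with the largest fitted change in that fit.

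Oas1a was at 0.337, 0.285 and 0.189 CPM in control libraries 1 to 3, 0.259, 12.9 and 1.14 in the hypoplastic and 0.316, 0.466 and 3.39 in the treated libraries. Oas1b, its near neighbour on the chromosome, was at 7.45, 7.38 and 7.73 CPM in control libraries 1 to 3, 6.41, 22.1 and 8.96 in the hypoplastic and 6.97, 6.73 and 9.87 in the treated libraries. In hypoplastic library 2 Oas1a was 39.4 times and Oas1b 2.97 times the median of the other libraries, though reads of such similar genes may have been divided between them in a way that is not known here. Oas3 was at 0.506, 0.392 and 0.62 CPM in control libraries 1 to 3, 0.872, 5.91 and 1.68 in the hypoplastic and 0.434, 0.574 and 3.99 in the treated libraries. Oasl was at 0.506, 0.731 and 0.692 CPM in control libraries 1 to 3, 0.961, 49.6 and 2.41 in the hypoplastic and 0.764, 0.729 and 7.48 in the treated libraries. Oasl2 was at 0.95, 0.946 and 1.25 CPM in control libraries 1 to 3, 1.92, 7.61 and 1.41 in the hypoplastic and 1.24, 1.08 and 4.67 in the treated libraries. In Oas3, Oasl and Oasl2, as in Oas2, all hypoplastic libraries lay above all control libraries. Fitted changes were 4.14 (SE 1.47) for Oas1a, 2.45 (SE 0.978) for Oas3, 4.78 (SE 1.56) for Oasl and 1.79 (SE 0.747) for Oasl2, with edgeR adjusted p of 0.347, 0.37, 0.325 and 0.384. Without hypoplastic library 2 they were 1.34, 1.29, 1.37 and 0.67.

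Isg15 is a ubiquitin-like protein that is attached to other proteins during the response, Usp18 removes it, and Ube2l6 is the conjugating enzyme. Isg15 was at 0.429, 0.0892 and 0.244 CPM in control libraries 1 to 3, 0.717, 19.6 and 1.34 in the hypoplastic and 0.237, 0.383 and 4.56 in the treated libraries. The hypoplastic libraries all lay above the controls, by a narrow margin in library 1, on counts of 5 to 28 in the control libraries. Its fitted log2 change was 4.79 (SE 1.6), at an edgeR adjusted p of 0.331 and a DESeq2 adjusted p of 0.0573, and 1.96 without hypoplastic library 2. Usp18 was at 0.184, 0.161 and 0.353 CPM in control libraries 1 to 3, 0.305, 8.08 and 0.235 in the hypoplastic and 0.184, 0.344 and 2.73 in the treated libraries, with hypoplastic libraries 1 and 3 inside the control range. Its fitted change of 3.58 (SE 1.52, edgeR adjusted p 0.39) was 0.19 without hypoplastic library 2. Ube2l6 was at 5.59, 7.25 and 4.79 CPM in control libraries 1 to 3, 7.55, 7.9 and 5.88 in the hypoplastic and 5.61, 6.53 and 5.82 in the treated libraries, and its groups overlapped with no library apart.

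**Figure D2:**
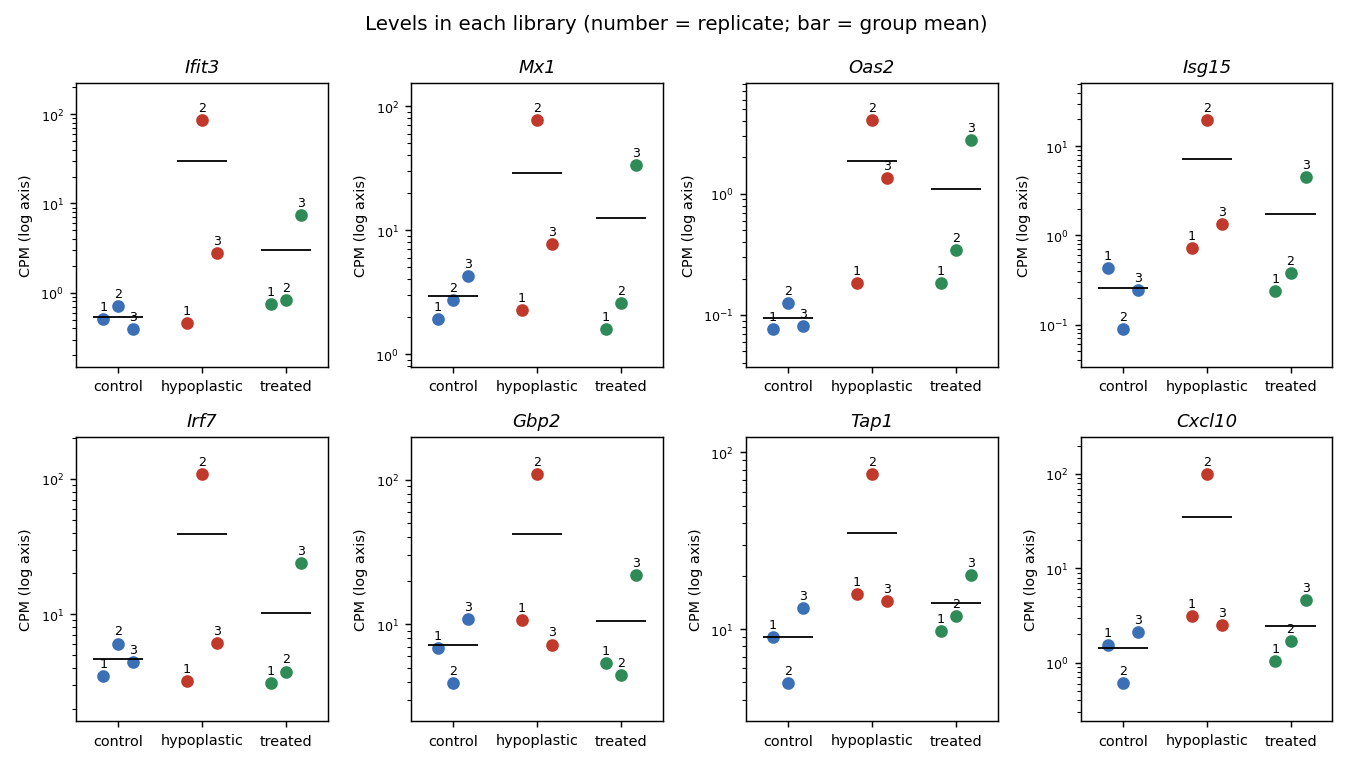
Levels of 8 genes in each library, in CPM on log axes, by group (points numbered by replicate, bars at the group mean). In every panel hypoplastic library 2 is the highest point and treated library 3 the second, and in Oas2, Isg15, Tap1 and Cxcl10 all hypoplastic points lie above all control points.

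The guanylate-binding proteins are GTPases that attack intracellular microbes and respond strongly to interferon gamma. Gbp2 was at 6.89, 3.91 and 10.9 CPM in control libraries 1 to 3, 10.7, 109 and 7.24 in the hypoplastic and 5.37, 4.48 and 22.0 in the treated libraries. Gbp5 was at 3.03, 2.07 and 3.91 CPM in control libraries 1 to 3, 3.57, 36.1 and 3.89 in the hypoplastic and 2.57, 2.46 and 7.23 in the treated libraries. Both were lowest in control library 2 and above all others in hypoplastic library 2, and hypoplastic libraries 1 and 3 lay within or close to the control range. Gbp2 had a log2 fold change of 2.54 (SE 1.03) and Gbp5 of 2.27 (SE 0.869), with edgeR adjusted p of 0.375 and 0.366, and without hypoplastic library 2 the changes were 0.31 and 0.30. Gbp4 was at 2.73 CPM in hypoplastic library 2, 1.06 in treated library 3 and 0.0178 to 0.412 in the others.

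Psmb8 and Psmb9, subunits of the immunoproteasome, and Tap1, the peptide transporter, prepare peptides for class I presentation, and the 3 genes lie next to each other on chromosome 20 in GRCr8. Tap1 was at 9.04, 4.95 and 13.2 CPM in control libraries 1 to 3, 15.8, 75.0 and 14.4 in the hypoplastic and 9.73, 11.9 and 20.4 in the treated libraries. Each hypoplastic library exceeded each control library, hypoplastic libraries 1 and 3 by little. The log2 fold change of Tap1 was 1.95 (SE 0.644), with an edgeR adjusted p of 0.326, and 0.73 without hypoplastic library 2. Psmb8 was at 4.77, 3.17 and 5.81 CPM in control libraries 1 to 3, 5.23, 24.1 and 6.35 in the hypoplastic and 5.31, 5.1 and 10.5 in the treated libraries, a fitted change of 1.37 (SE 0.567, edgeR adjusted p 0.381) that was 0.33 without that library.

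Cxcl9, Cxcl10 and Cxcl11 attract activated T cells through 1 receptor, Cxcr3, and lie side by side in the genome. Cxcl10 was at 1.55, 0.607 and 2.12 CPM in control libraries 1 to 3, 3.11, 98.9 and 2.5 in the hypoplastic and 1.05, 1.68 and 4.66 in the treated libraries. All hypoplastic libraries lay above all control libraries, and hypoplastic library 2 was 52.0 times the median of the other 8. The fitted log2 change came to 4.59 (SE 1.39), with an edgeR adjusted p of 0.323, and 0.95 without hypoplastic library 2. Cxcl11 had 821.8 counts in hypoplastic library 2, 78.0 in treated library 3 and 0 to 6.0 in the other 7 libraries. Cxcl9 had 70.0 counts in hypoplastic library 2 and 0 to 10 elsewhere, with 4 in treated library 3.

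Ifit1, an RNA-binding antiviral protein of the Ifit family, had another pattern. It was at 0.567, 24.5 and 0.0542 CPM in control libraries 1 to 3, 25.3, 44.0 and 32.6 in the hypoplastic and 30.0, 30.9 and 26.9 in the treated libraries, on 37.0 counts in control library 1, 1371 in control library 2 and 4.0 in control library 3. Control libraries 1 and 3 were low, while control library 2 lay just below the 6 hypoplastic and treated libraries, which ran from 25.3 to 44.0 CPM. The groups of hypoplastic and control lungs did not overlap, and neither did those of treated and control lungs. With all libraries the log2 fold change was 2.04 (SE 1.21) in hypoplastic and 1.83 (SE 1.21) in treated against control lungs, with edgeR adjusted p of 0.513 and 0.998. Without control library 2 these were 6.82 and 6.61, with edgeR adjusted p of 0.0148 and 0.0184, and Ifit1 was the 1 gene called of 13144 tested (0.00761%) in each comparison. In GRCr8 Ifit1 lies within the span of Ifit1bl, a related gene not analysed here, and how reads shared by them were assigned is not known here.

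Rsad2, the antiviral enzyme viperin, and Cmpk2, a mitochondrial nucleotide kinase, are next to each other on chromosome 6 in GRCr8 and were singled out after their values were seen, because their control libraries fell in the same order as those of Ifit1. Rsad2 was at 25.9, 44.8 and 10.2 CPM in control libraries 1 to 3, 21.4, 85.6 and 59.5 in the hypoplastic and 20.6, 29.5 and 35.2 in the treated libraries. Cmpk2 was at 20.2, 37.1 and 11.6 CPM in control libraries 1 to 3, 20.5, 25.7 and 26.0 in the hypoplastic and 26.6, 36.0 and 21.5 in the treated libraries. Both were lowest in control library 3, and Cmpk2 was highest in control library 2, while Rsad2 was higher in hypoplastic libraries 2 and 3 than there. The fitted change between hypoplastic and control lungs was 1.04 (SE 0.555) for Rsad2 and 0.07 (SE 0.359) for Cmpk2, with edgeR adjusted p of 0.47 and 0.952. Among the 39 tested genes 6 were highest in control library 2 and lowest in control library 3 of the 3 controls (Ifit1, Ifit3, Isg20, Rsad2, Ube2l6 and Cmpk2), while 17 were lowest in control library 2 and highest in control library 3.

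**Figure D3:**
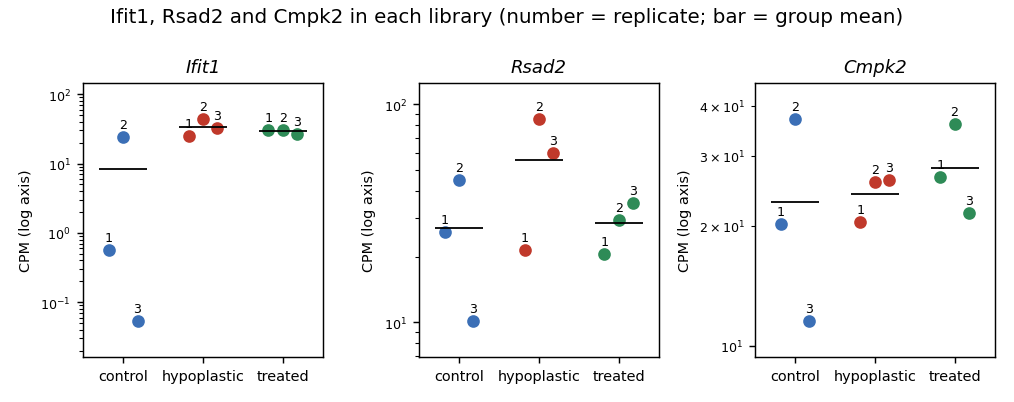
Levels of Ifit1, Rsad2 and Cmpk2 in each library, in CPM on log axes, by group (points numbered by replicate, bars at the group mean). Ifit1 sits between 24.5 and 44.0 CPM in 7 libraries and at 0.567 and 0.0542 CPM in control libraries 1 and 3, and in all 3 panels control library 3 is the lowest point.

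Between treated and untreated hypoplastic lungs, the question was the effect of the vesicles. Most genes of the set had a lower fitted level in the treated lungs, none passed the threshold, and the direction turned when hypoplastic library 2 was left out. Of 39 genes 0 were called by edgeR (0% of all genes were), 0 by DESeq2 (0.14% of all genes) and 0 by limma voom. At an unadjusted p under 0.05 there were 2 of 39 by edgeR, both lower, against 5.56% of all genes in both directions and 3.56% lower. There was 1 of the 30 given a p by DESeq2 (5.80% of all genes given one) and 0 of 39 by limma voom (4.36%). The fitted change was above 0 for 2 of 39 genes, against 48.1% of all genes, and the median log2 fold change was -0.77, against -0.010 over all genes. Library values did not overlap for 1 gene, Irf1, which was lower in the treated lungs, where 4.74% of all genes were lower and 5.09% higher without overlap. When hypoplastic library 2 was left out the median was 0.262 and 33 of 39 fitted changes were above 0, against 48.7% of all genes, and 0 had an unadjusted p under 0.05, against 5.42%. Without treated library 3 the median was -1.37, 2 of 40 were above 0 (48% of all genes) and 20 of 40 tested genes had an unadjusted p under 0.05, all lower, against 7.39% of all genes. That count was 15 of 42 when hypoplastic library 1 was dropped and 10 of 42 when hypoplastic library 3 was. Dropping either treated library 1 or treated library 2 gave 0 of 42. No share of all genes is given for these fits over 42 genes, so their counts have no background here. They also took in Cxcl9, Cxcl11 and Zbp1, set aside in the main fit, and are not comparable with counts over 39 genes. Without overlap, 1 of 39 genes was higher and 16 lower when treated library 3 was left out, against 12.9% and 12.8% of all genes, and 0 and 1 when hypoplastic library 2 was, against 10.3% and 9.67%. With both hypoplastic library 2 and treated library 3 left out the median was -0.426, 6 of 39 were above 0, against 48.4% of all genes, and 6 had an unadjusted p under 0.05, against 5.24% of all genes.

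The genes at an unadjusted p under 0.05 were Cxcl10, with a log2 fold change of -3.83 (SE 1.32), and Ifit2, with -2.15 (SE 0.95), and their edgeR adjusted p were 0.869 and 0.895. Without hypoplastic library 2 these changes were -0.20 and 0.21. Irf1 had a fitted change of -0.80 (SE 0.367, edgeR adjusted p 0.901) and of -0.38 without that library. The fitted direction turned from lower to higher without it in Ifit2 and also in Mx1, from -1.22 (SE 1.28) to 1.33, and in Ifit3, from -3.33 (SE 1.52) to 0.90. Tap1 had a fitted change of -1.33 (SE 0.629) and Rsad2 of -0.96 (SE 0.553), which were -0.11 and -0.51 without it. Ifit1 had a fitted change of -0.21 (SE 1.15), with means of 34.0 CPM ± 9.41 (SD, n = 3) in hypoplastic and 29.3 CPM ± 2.09 (SD, n = 3) in treated lungs.

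**Figure D4:**
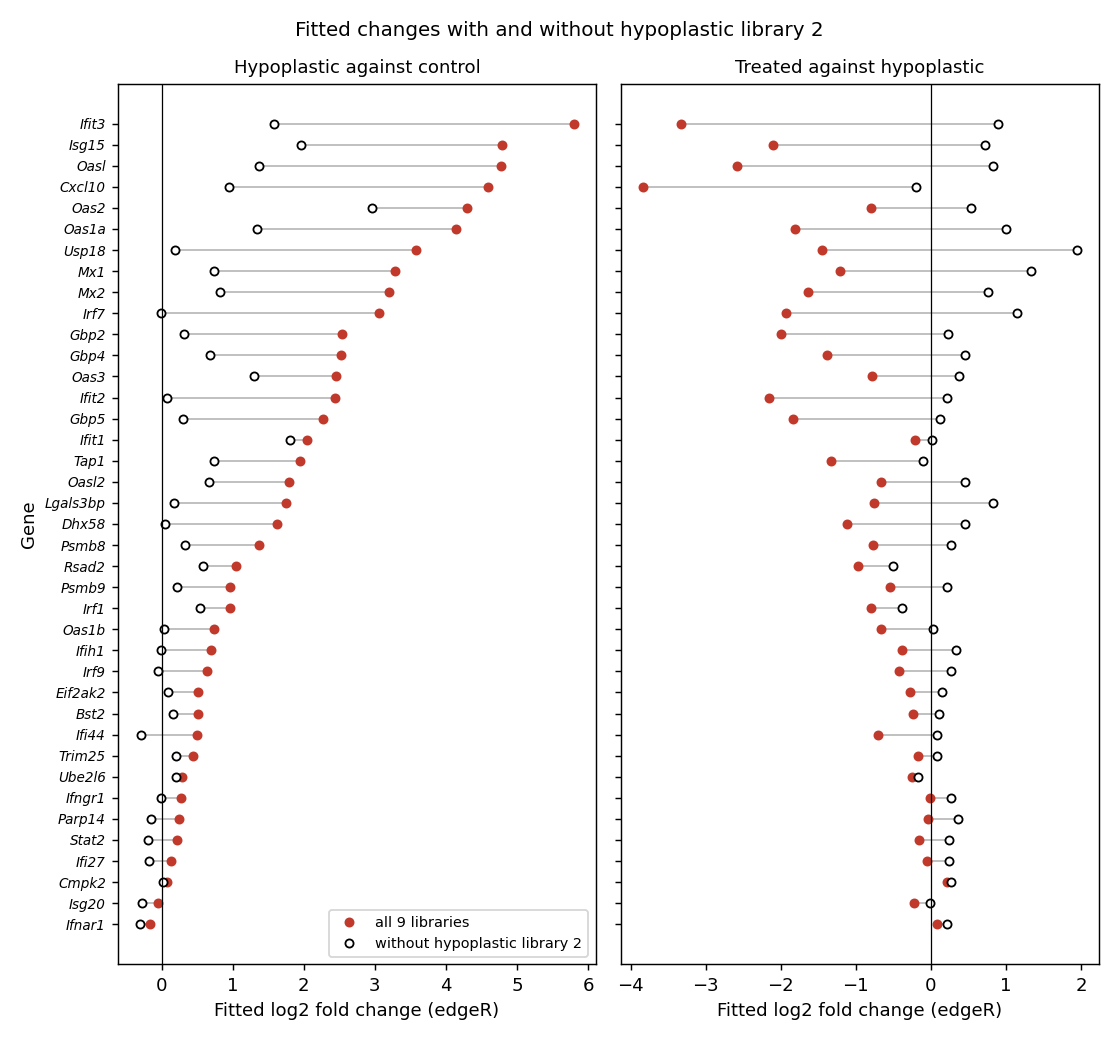
Fitted log2 fold changes of the 39 tested genes by edgeR with all 9 libraries (filled points) and without hypoplastic library 2 (open points), for hypoplastic against control (left) and treated against hypoplastic lungs (right). On the left the open points have a median of 0.199 and the filled points of 1.62, and on the right 33 of 39 open points lie above 0 where 37 of 39 filled points lie below it.

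Between treated and control lungs, the question was which differences remained with the vesicles. By edgeR 0 of 39 genes were called (0% of all genes), 0 by DESeq2 (0.108% of all genes) and 0 by limma voom. At an unadjusted p under 0.05 there was 1 of 39 by edgeR, Oas2, which was higher, against 4.17% of all genes in both directions and 1.67% higher. There were 2 of the 30 genes given a p by DESeq2 (4.80% of all genes given one) and 1 of 39 by limma voom (3.86%). The fitted change was above 0 for 36 of 39 genes, against 50.6% of all, with a median log2 fold change of 0.426, against 0.0028 over all genes. Ifit1, Ifit3 and Oas2 were higher in the treated lungs without overlap (3 of 39), where 4.37% of all genes were higher and 5.01% lower. Without treated library 3, 3 of 39 were higher and 7 lower without overlap, against 11.1% and 10.8% of all genes. Oas2 had a fitted change of 3.50 (SE 1.53, edgeR adjusted p 0.998), which was 1.52 without treated library 3. The median of the set was -0.069 without treated library 3, with 17 of 40 tested genes above 0 (48.5% of all genes) and 0 at an unadjusted p under 0.05 (4.34% of all genes), and Mx1 went from 2.06 (SE 1.36) to -0.50. The 3 comparisons share groups, so their values are not independent of each other.

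The 2 high libraries did not hold the genes in the same proportions. In treated library 3 the level was 4.71% of that in hypoplastic library 2 for Cxcl10, 8.53% for Cxcl11 and 8.61% for Ifit3. For the guanylate-binding proteins it was 20.0 to 38.8%, and for the antigen processing genes 27.1 to 54.8%. Mx1 stood at 43.4%, Oas3 at 67.6%, Oas2 at 68.5% and Parp14 at 106%. Each percentage compares 1 library with 1 other and has no replicate check.

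**Figure D5:**
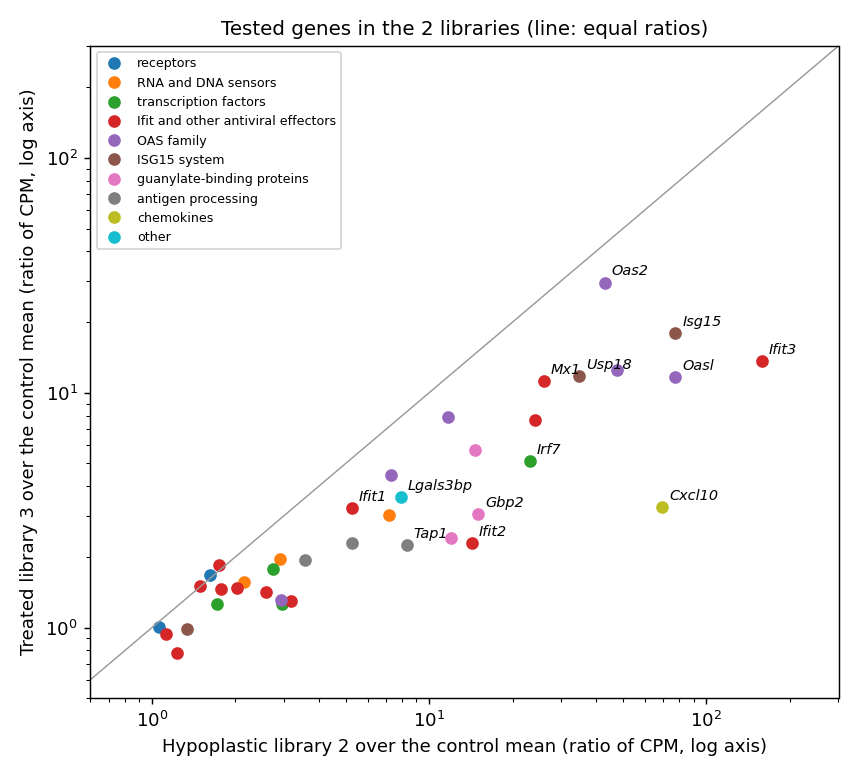
Level in treated library 3 against level in hypoplastic library 2, each as a ratio of CPM to the control mean on log axes, for the 39 tested genes (points, coloured by role; the line marks equal ratios). All points but Ifi27, Parp14 and Ifngr1 lie below the line, and Cxcl10, at 4.71%, lies furthest from it.

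Macrophage markers were high in the same libraries. The summed level of 10 macrophage and monocyte markers (Cd68, Csf1r, Adgre1, Mrc1, Cd163, C1qa, C1qb, C1qc, Marco and Ly86) was 129, 34.7 and 141 CPM in control libraries 1 to 3, 102, 319.8 and 175 in the hypoplastic and 114, 85.3 and 272 in the treated libraries. All 10 were above the median of the other 8 libraries in hypoplastic library 2, Marco on a trace level. The sum was 2.63 times that median in hypoplastic library 2, and in treated library 3 it was 85.1% of the level in hypoplastic library 2. Control library 2 had the lowest macrophage sum. Of the 39 tested interferon response genes, 20 were lowest of the controls there, while 6 were highest there and lowest in control library 3. The share of all genes lowest in control library 2 is not given here. The part of macrophages in the results was not tested.

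The sum of 10 neutrophil markers was 14.8, 14.8 and 7.7 CPM in control libraries 1 to 3, 110.4, 59.9 and 91.9 in the hypoplastic and 54.4, 21.3 and 89.6 in the treated libraries. This sum was higher in every hypoplastic than in every control library. It was highest in hypoplastic library 1, in which the interferon response genes were not high. S100a8 and S100a9 were its largest parts in that library. S100a8, S100a9, Camp, Ltf and Np4 were highest there, Ngp and Mmp8 in hypoplastic library 3 and Cxcr2 in treated library 3. Mpo and Elane were instead highest in hypoplastic library 2, at 5.21 and 1.65 CPM. They were at 2.95 and 0.911 CPM in treated library 3 and 1.11 and 0.0915 in hypoplastic library 1. Elane was second in hypoplastic library 3, at 1.19 CPM. The sum of 13 T cell, NK cell and thymocyte markers was 8.27, 4.44 and 9.59 CPM in control libraries 1 to 3, 7.09, 10.9 and 7.08 in the hypoplastic and 5.07, 6.09 and 10.6 in the treated libraries, highest in hypoplastic library 2, next in treated library 3 and lowest in control library 2. This order rested on Cd4, at 3.98 CPM in hypoplastic library 2, 3.59 in treated library 3 and 0.392 in control library 2. Without Cd4, hypoplastic library 2 was not the highest and control library 2 not the lowest. The full sum was 1.54 times the median of the other 8 libraries in hypoplastic library 2, with Cd3e, Cd3d and Cd3g each at 0.12 CPM or less in every library. Skeletal muscle, heart and liver markers summed to 61.2 CPM in hypoplastic library 1, 47.6 in hypoplastic library 2 and 9.73 to 18.7 in the other 7. In hypoplastic libraries 1 and 2 most of it was the heart genes Myl7 (37.6 and 22.7 CPM) and Tnni3 (12.0 and 5.94). The liver genes Alb and Afp were at most 0.0713 CPM in any library. Apoa1, also a liver gene, was at 5.65 CPM in control library 2 and at most 0.117 CPM in every other library. B cell markers (4 in the table) summed to 0.132 to 0.338 CPM. Dendritic cell markers (5 in the table) summed to 56.4 to 68.6 CPM, nearly all of it Tcf4, with 68.6 in hypoplastic library 2 and 68.1 in treated library 3 as the highest values, and 4 endothelial markers to 598 to 808 CPM. Whole blood and red cell markers (4 in the table) summed to 5856, 10555 and 3417 CPM in control libraries 1 to 3 and to 3161 to 6130 CPM in the other 6. The 3 control libraries stood in the same order there as in Ifit1, Rsad2 and Cmpk2, with control library 2 highest and control library 3 lowest. Their part in the results was not tested.

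A list of 74 other genes of the interferon pathway held 60 genes of the table and 54 tested genes. It was drawn up by their known roles, with earlier results of these data known. By edgeR 0 of 54 were called in each of the 3 comparisons. In hypoplastic against control lungs 7 of 54 were higher at an unadjusted p under 0.05 (13.0%, against 6.67% of all genes higher) and 0 lower, and over both directions the share was near the 12.4% of all genes. The median log2 fold change was 0.20. Without hypoplastic library 2 it was 0.017, with 2 higher and 3 lower, 5 of 54 in all, near the 8.99% of all genes in that fit. In treated against hypoplastic lungs 3 of 54 were lower (5.56%, against 3.56% of all genes lower) and 0 higher, and the median of -0.091 was 0.12 without hypoplastic library 2 and -0.24 without treated library 3. In treated against control lungs 0 of 54 had an unadjusted p under 0.05, and the median of 0.12 was -0.090 without treated library 3. The 7 higher in hypoplastic lungs were Socs3, Ifitm2, Ifitm3, Rtp4, Slfn2, Slfn4 and Cd274. Socs3, an inhibitor of cytokine signalling, was at 9.09, 5.73 and 13.1 CPM in control libraries 1 to 3, 17.2, 25.0 and 19.8 in the hypoplastic and 14.6, 12.5 and 14.0 in the treated libraries, above the controls in every hypoplastic library. Its log2 fold change was 1.15 (SE 0.266), with an edgeR adjusted p of 0.317 and a DESeq2 adjusted p of 0.00699, and 0.99 without hypoplastic library 2. Of the interferons themselves, Ifnb1, Ifnk and Ifna5 had 0 CPM in all 9 libraries, Ifna4 reached 0.0132 CPM in treated library 1 alone, and Ifng was at most 0.0305 CPM, so these ligands were at or near the limit of detection at this depth.

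The genes whose pattern was most like that of the set were sought over the 9 libraries, by Pearson's r of log2(CPM + 1) with the mean standardised level of the 39 tested genes. The 10 highest among non-members were Rtp4, Dtx3l, Shfl, Slfn2, Ifi27l2b, Slfn4, Tor3a, Ptpre, Lgals9 and Ccl12, with r of 0.971 to 0.984. Over the 7 libraries other than hypoplastic 2 and treated 3, r was 0.728 to 0.963 for 8 of the 10, highest in Shfl and lowest of these in Ptpre, and it was 0.508 for Lgals9 and 0.229 for Tor3a. Ifi27l2b was at 0.907, 0.859 and 1.61 CPM in control libraries 1 to 3, 1.72, 44.8 and 4.4 in the hypoplastic and 1.46, 1.56 and 17.3 in the treated libraries, an order of libraries like that of Mx1 at the top.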

How the data were processed

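RNA-seq of 9 libraries of fetal rat lung (3 per group) was analysed from the authors' deposited table of estimated counts per gene, in which 19.5% of nonzero values were whole. The submitters' processing notes name DESeq2 and the build rn7, and the sources used here give no aligner, counter or annotation. Per the labels' protocols, RNA was extracted on the same day for all libraries. Gene IDs were paired with symbols through a RefSeq table of GRCr8, which matched 17314 of 17465 IDs (99.1%) and gave names and gene order only. Promoter windows were RefSeq sequences of GRCr8, with coordinates of that assembly.

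Estimated counts were rounded and fitted in edgeR 4.0.16 (R 4.3.3; TMM, filterByExpr, quasi-likelihood test, group means over all 9 libraries, 6 residual degrees of freedom), with Benjamini-Hochberg adjustment over 12966 genes and a call at 0.05. The other 4499 genes were set aside for low counts. The standard error of a log2 fold change is its size divided by the square root of the test's F value. The fit was also run on simulated counts, with the same spread for all genes and no library set apart. It therefore does not show how the test behaves where a library stands far from its group. Alternatives were DESeq2 1.42.0, limma 3.58.1 (voom), other size factors and filters, a replicate block, the 6 libraries compared alone, removal of ribosomal and 7SL rows (6 rows, 16.2% of counts), leaving out each library, leaving out control 2 and hypoplastic 2 together, and, chosen after seeing the data, leaving out hypoplastic 2 and treated 3 together.

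Members and lists were chosen with earlier results of these data known. A member is given in every library if its unadjusted p was under 0.05 in a comparison, if its values did not overlap between hypoplastic and control or between treated and hypoplastic lungs, or if it had the largest mean count of its role. Rsad2, Cmpk2 and Socs3 were added after their values were seen. Library totals ran from 56922779 to 88243188, and the biological coefficient of variation common to all genes was 0.253.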

Additional observations from a re-analysis of the deposited data

How the results depend on the processing

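Counts of called members were 0 in each comparison, and with 1 library left out they ran from 0 to 1 for hypoplastic against control, from 0 to 0 for treated against hypoplastic and from 0 to 1 for treated against control lungs. DESeq2 called 1 member (Oas2) in hypoplastic against control lungs, and leaving out control 2 and hypoplastic 2 together gave 1 (Ifit1) there and 1 (Ifit1) in treated against control lungs. The median log2 fold change of hypoplastic against control lungs ran from 0.199 to 2.15 with 1 library left out, and was 0.109 without control 2 and hypoplastic 2 and 0.198 without hypoplastic 2 and treated 3. For treated against hypoplastic lungs it ran from -1.37 to 0.262 and was 0.262 without control 2 and hypoplastic 2. For treated against control lungs it ran from -0.0693 to 0.716 and was -0.0618 without hypoplastic 2 and treated 3.

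Of 36 fitted changes of single genes, 9 turned direction under some alternative. Without control 2 and hypoplastic 2, Lgals3bp was at -0.0382 and Stat2 at -0.159 in hypoplastic against control lungs, and in treated against hypoplastic lungs Ifit1 was at 0.0165, Ifit2 at 0.213, Mx1 at 1.33 and Ifit3 at 0.896. Without hypoplastic 2 and treated 3, Irf7 was at -0.0108 and Stat2 at -0.190 in hypoplastic against control, Ifit1 at 0.0734 in treated against hypoplastic and Mx1 at -0.501 in treated against control lungs. With 1 library left out, hypoplastic against control ran from -0.0109 to 3.61 for Irf7, from -0.251 to 0.598 for Cmpk2 and from -0.190 to 0.404 for Stat2. Treated against hypoplastic ran from -0.387 to 0.0168 for Ifit1, from -2.95 to 0.213 for Ifit2, from -3.78 to 1.33 for Mx1 and from -5.21 to 0.896 for Ifit3, and treated against control from -0.501 to 2.59 for Mx1. The cause was not tested.

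With the replicate number as a block 0 members were called in each comparison, and the medians were 1.40, -0.662 and 0.369. Same-numbered libraries deviated together with r over 0.1 in 3 of 9 pairs (r from -0.282 to 0.227), so the numbers were not taken as pairs.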
